A study of Mus musculus with 74 samples.

Results

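The late comparison of Th1/2 hybrid cells with Th0 cells rested on 16 of the 74 arrays of the series, 8 of Th1/2 cells and 8 of Th0 cells. They were chosen by label as the arrays taken at 48, 73, 96 and 120 h after activation, and each Th1/2 array was matched with the Th0 array of the same time and the same experiment number. All cells were naive, CD62L-high CD4+ T cells sorted magnetically from pooled spleen and lymph nodes of Balb/c mice aged 5 to 8 weeks and activated on plate-bound anti-CD3 with anti-CD28. Th1/2 hybrid cells received IL-12 together with IL-4 and no blocking antibody. Th0 cells received no polarizing cytokine and were kept with antibodies that block IFN-γ, IL-12, and IL-4. The 2 conditions therefore differed in the added cytokines and in the antibodies, and the parts of these differences cannot be told apart. Cultures were divided on day 2, so that all 4 times lay at or after that point. Each level is the log2 intensity of a bead array, read from a whole culture, so that fewer cells of a type and less RNA per cell cannot be told apart. The series also holds naive cells at 0 h, Th1 cells, given IL-12 and an antibody to IL-4, and Th2 cells, given IL-4 and antibodies to IL-12 and IFN-γ, which serve here only to place the Th1/2 cells. Th1/2 cells thus differed from Th1 and from Th2 cells in a cytokine and in the antibodies, which cannot be told apart there either.

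T helper cells read the cytokines around them through JAK kinases and STAT transcription factors. IL-4 acts through STAT6 and favours GATA-3, the master regulator of Th2 cells, which produce IL-4 and its relatives. IL-12 acts through STAT4 and, with IFN-γ, favours T-bet, encoded by *Tbx21*, the master regulator of Th1 cells. Cells given both signals can hold T-bet and GATA-3 together, and are called Th1/2 hybrid cells. Type I interferons switch on antiviral genes in almost any cell.

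The array medians of the 16 arrays lay between 107.7 and 110.0 in linear intensity. The T cell markers were bright in all cultures, and their summed intensity ranged between 68845 and 111566 in Th1/2 cells and between 86977 and 125233 in Th0 cells. By the call defined below, 4 of the 11 T cell markers tested were lower in Th1/2 cells and none was higher. Over all genes, 19.2% were lower and 13.5% higher. *Thy1*, at -0.62, was the marker of largest difference. Without experiment 1, 5 of the markers were lower and 2 higher, where 13.7% and 9.51% of all genes were. Without experiment 2, 3 were lower and none was higher, where 9.83% and 8.5% of all genes were. The Th0 array of 96 h in experiment 2 stood apart. It differed at least 2-fold from the other cell types of its time and experiment in 720 genes, 445 of them lower, whereas the other 7 Th0 arrays did so in 124 to 318 genes and the 8 Th1/2 arrays in 95 to 208. Results were therefore computed with all 8 matched pairs and again without the pair of 96 h in experiment 2.

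A gene was represented by its brightest probe, and its late difference is the mean over the 4 times of Th1/2 minus Th0 on the log2 scale, so that a value of 1 is a 2-fold higher intensity in Th1/2 cells. The difference, over 8 matched pairs, was fitted with limma and called where the Benjamini-Hochberg adjusted p over 13810 genes was under 0.05. Its standard error (SE) is limma's moderated one, from the residuals of a fit that also held the Th1 and Th2 arrays. Each time had its own term in that fit, so a change of the difference between times does not widen the SE. The pairs came from 2 experiments only, so a difference that lasts in a culture is counted again at each time, and p measures the spread between matched arrays. Where a value is given without 1 experiment, only its Th1/2 and Th0 arrays were left out. The spread behind that p then comes from the Th1 and Th2 arrays of both experiments. Such a fit also holds fewer pairs, so a lost call does not by itself mean that the size of the difference changed. Where one group lay near the median of all values (6.77), as *Ifit3*, *Oasl2*, *Rsad2*, *Igfbp7*, *Eomes*, *Cd86*, *Ccr6*, and *Drc1* did in Th1/2 cells and *Ffar2*, *Il21*, *Lilrb4a*, *Serpinf1*, *Tnfrsf8*, and *Adgre1* did in Th0 cells, the probe may not stand above background there and the size of the difference is a lower bound. Of the 13810 genes, 1861 (13.5%) were higher and 2649 (19.2%) were lower in Th1/2 cells, and the median difference over all genes was -0.0113. With a difference of at least 2-fold, 167 genes (1.21%) were higher and 160 (1.16%) were lower. Without the 96 h pair of experiment 2, 1949 genes (14.1%) were higher and 2380 (17.2%) lower, 165 (1.19%) and 159 (1.15%) of them at least 2-fold, including 153 of the 167 and 154 of the 160. The 8 Th1/2 and the 8 Th0 arrays did not overlap in 316 genes (2.29%), 165 of them higher (1.19%) and 151 lower (1.09%) in Th1/2 cells, and 2134 genes (15.5%) had the same sign in all 8 pairs.

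**Figure D1:**
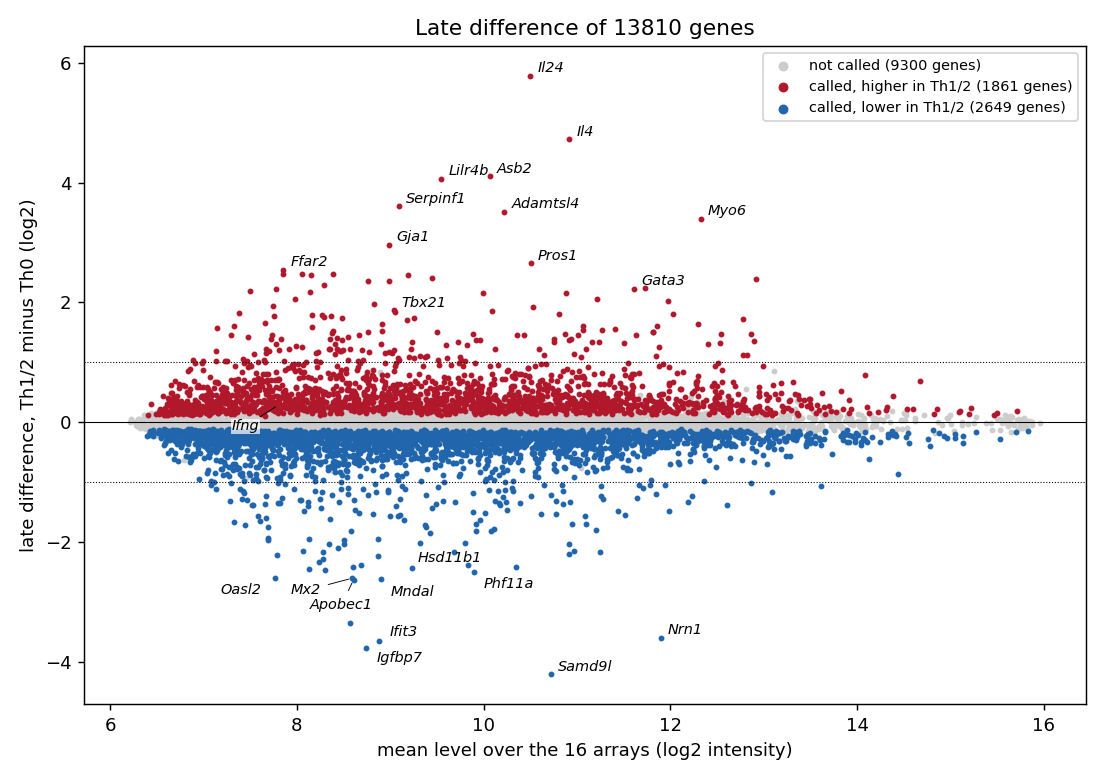
Late difference (Th1/2 minus Th0, log2, vertical axis) against the mean level over the 16 arrays (log2 intensity, horizontal axis), 1 point per gene for 13810 genes. Red points are the 1861 genes called higher and blue points the 2649 called lower in Th1/2 cells, and dotted lines mark 2-fold; *Il24* at 5.78 and *Samd9l* at -4.21 are the extremes.

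Th2 genes were higher in Th1/2 cells almost as a group. *Il24*, a cytokine of the IL-10 family, and *Il4*, the signature cytokine of Th2 cells, had the largest positive differences of all genes. Of the 18 Th2 factors, receptors, and cytokines tested, 15 were higher (13.5% of all genes were) and none was lower. At least 2-fold higher were 11 (1.21% of all genes). The median difference of the list was 1.43, with 1.14 in experiment 1 and 1.39 in experiment 2.

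The level of *Il4* ranged between 10.98 and 14.28 with a median of 13.85 in Th1/2 cells, against a range of 7.50 to 9.71 with a median of 8.44 in Th0 cells. The groups did not overlap, and the Th1/2 arrays of 48 h were the lowest of their group. The late difference of *Il4* was 4.72 ± 0.19 (SE, 8 pairs, adjusted p = 3.53e-12), a 26.4-fold higher intensity. *Il24* ranged between 11.56 and 14.20 (median 13.71) in Th1/2 cells and between 7.11 and 8.18 (median 7.68) in Th0 cells. Its difference was 5.78 ± 0.32 (adjusted p = 1.79e-10), and again no Th0 array reached the Th1/2 range. *Gata3* ranged between 12.32 and 13.29 (median 12.70) in Th1/2 cells and between 10.04 and 10.70 (median 10.60) in Th0 cells. Both groups were narrow and apart, and the difference of 2.22 ± 0.10 (adjusted p = 1.82e-11) was between 1.97 and 2.39 at each of the 4 times. The *Gata3* difference did not pass limma's F-test for a change over the 4 times (adjusted p = 0.722).

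**Figure D2:**
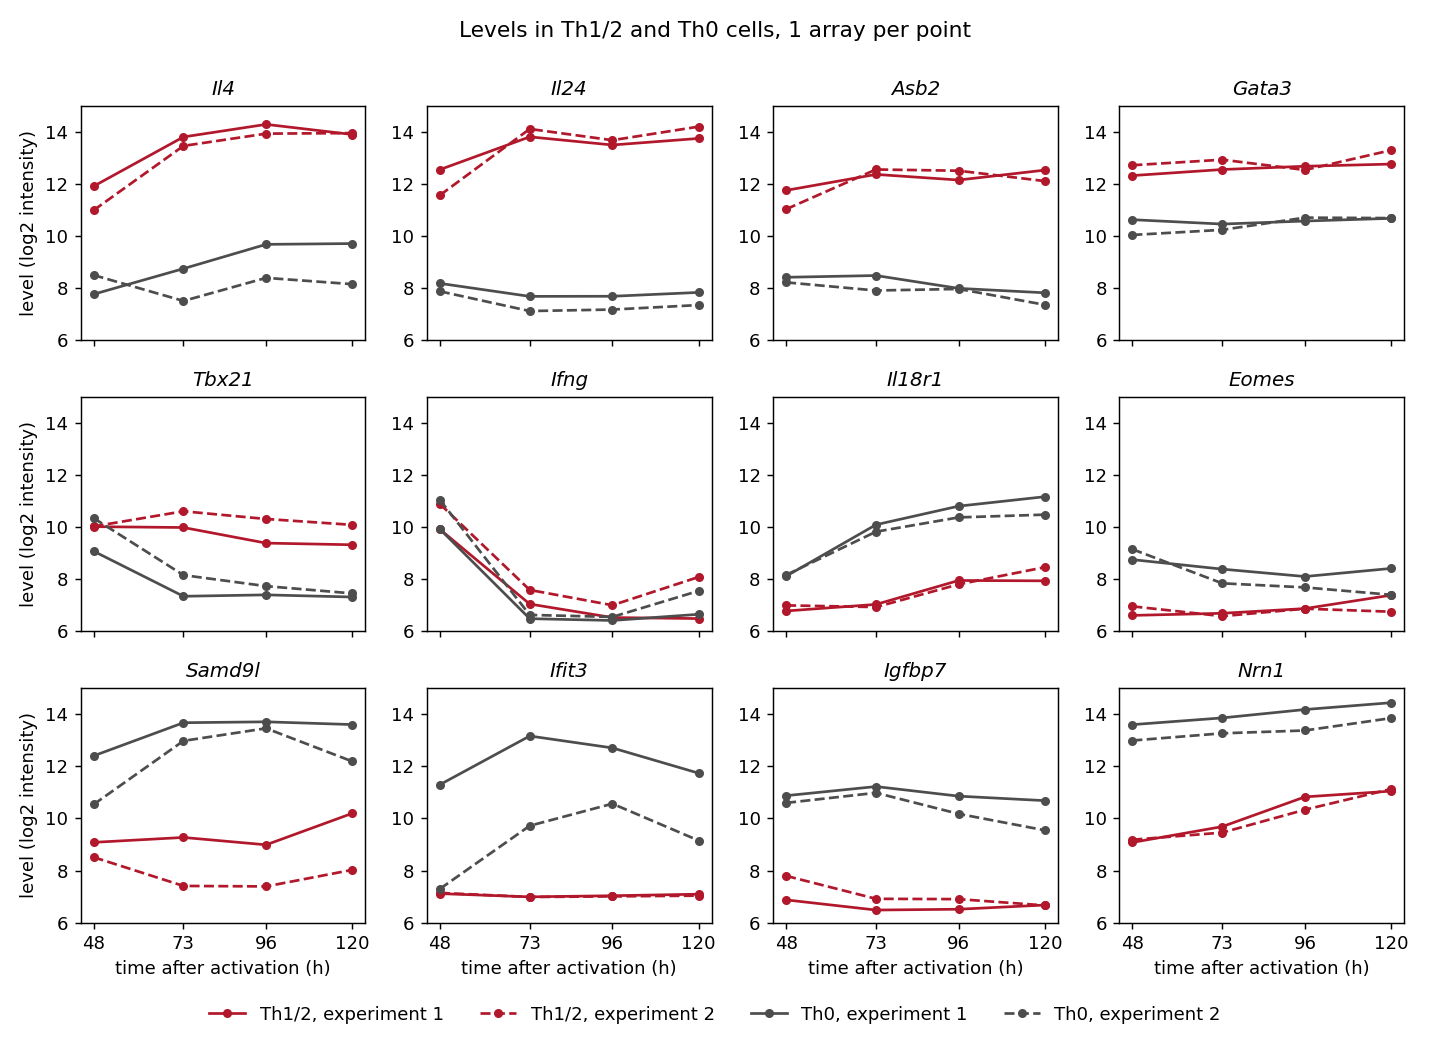
Level (log2 intensity, vertical axis) of 12 genes at 48, 73, 96, and 120 h (horizontal axis), 1 array per point. Red lines are Th1/2 cells and grey lines Th0 cells, solid for experiment 1 and dashed for experiment 2; *Il4*, *Il24*, *Asb2*, and *Gata3* are higher in Th1/2 cells at every time, *Tbx21* parts after 48 h, *Ifng* runs together, and the lower row is higher in Th0 cells.

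Among the other Th2 genes, the transcription factors *Batf* (2.06 ± 0.14) and *Irf4* (2.02 ± 0.15), which bind DNA together in T cells, were higher in both experiments. *Batf* did not overlap between the groups, with 11.72 to 12.76 in Th1/2 cells and 9.56 to 10.54 in Th0 cells. *Pparg* (1.77), a nuclear receptor for lipids, and *Gfi1* (1.45), a repressor that supports Th2 cell growth, rose together with *Il4ra* (1.41), the receptor chain that binds IL-4. The chemokine receptors *Ccr8* (1.73) and *Ccr4* (1.01), both found on Th2 cells, and *Il10* (1.66), an inhibitory cytokine, were higher as well. Smaller positive differences were called for the effector cytokines *Il5* (0.66) and *Il13* (0.47), for the hypoxia factor *Epas1* (0.62), and for *Maf* (0.44), an activator of the *Il4* promoter. The call of *Il13* was lost without experiment 1 (0.35, adjusted p = 0.0605) and that of *Epas1* without experiment 2 (0.45, adjusted p = 0.0717). *Stat6*, the transducer of the IL-4 signal, was at 0.04 (adjusted p = 0.763), and *Il6* (0.09) and *Il17rb* (0.08) did not pass the test either.

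STAT6 binds paired half-sites, and the letters TTCNNNNGAA, which read the same on both strands, were searched in the 250 bases before the RefSeq transcription starts (build GRCm38.p6). Of the tested genes with a promoter sequence, 635 of 11118 (5.71%) held the letters, against 8 of 132 (6.06%) of the genes called at least 2-fold higher in Th1/2 cells and 1 of 14 (7.14%) of the Th2 list. These shares were close to each other, so the letters did not mark the genes that were higher. The letters were also held by 8 of 125 (6.4%) of the genes called at least 2-fold lower. In the type I interferon list described below, 4 of 26 genes held them (15.4%). The member with a match in the Th2 list was *Il4* itself, shown because it carries the second largest difference of all genes. Capitals mark the match to these STAT6 letters only. The stretch lies at chr11:53618793-53618862 on the minus strand, 197 to 128 bases before 1 of its 2 annotated starts, and the window of the other start holds no match.
Il4: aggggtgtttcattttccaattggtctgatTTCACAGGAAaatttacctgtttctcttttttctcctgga

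Th1 genes split. Of the 21 Th1 factors, receptors, and cytokines tested, 6 were higher in Th1/2 cells (13.5% of all genes were) and 9 were lower (19.2% of all genes were), and the median difference was -9.05e-04. The higher members were *Tbx21*, both chains of the IL-12 receptor, *Cxcr3*, *Hlx*, and *Lta*, and the lower ones included *Il18r1*, *Eomes*, *Ccl3*, and *Ccl4*. The call of *Lta* was lost without experiment 1 (0.13, adjusted p = 0.337). *Ifng* itself was not called.

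*Tbx21* ranged between 9.33 and 10.61 (median 10.03) in Th1/2 cells and between 7.32 and 10.35 (median 7.60) in Th0 cells. The groups overlapped only through the Th0 arrays of 48 h, which held 9.08 and 10.35, against 10.02 and 10.03 in the Th1/2 arrays of that time. The late difference was 1.87 ± 0.14 (adjusted p = 1.19e-08), made up of 0.31, 2.55, 2.28, and 2.32 in time order. The level of *Tbx21* thus stayed in the Th1/2 cultures and was lower in the Th0 cultures after 48 h. *Ifng* ranged between 6.49 and 10.90 (median 7.32) in Th1/2 cells and between 6.42 and 11.05 (median 6.64) in Th0 cells, with the arrays of 48 h the highest in both groups. Its difference of 0.29 ± 0.20 missed the threshold (adjusted p = 0.338), and 5 of 8 pairs were higher in Th1/2 cells. In the same fit *Ifng* was at -3.74 in Th1/2 minus Th1 cells (adjusted p = 2.79e-10).

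Receptors for the Th1 signals moved in opposite directions. *Il12rb1*, the chain shared by the IL-12 and IL-23 receptors, was higher by 1.20 ± 0.17, with -0.04 at 48 h and 1.39 to 1.91 afterwards. *Il12rb2*, the chain particular to the IL-12 receptor, was at 0.53 ± 0.12 (adjusted p = 0.00178), and at 0.29 (adjusted p = 0.118) without experiment 2. *Il18r1*, the receptor for IL-18, which works with IL-12 to raise IFN-γ, ranged between 6.78 and 8.46 (median 7.42) in Th1/2 cells and between 8.12 and 11.17 (median 10.24) in Th0 cells. The only overlap lay with the Th0 arrays of 48 h, and the late difference was -2.39 ± 0.15 (adjusted p = 1.22e-09). The other probes of *Il18r1* gave differences up to -0.17, so its size rests on the probe chosen. *Eomes*, a T-box factor related to T-bet, was at 6.58 to 7.39 in Th1/2 cells and at 7.40 to 9.15 in Th0 cells, a difference of -1.38 ± 0.10. The chemokine receptor *Cxcr3*, a target of T-bet, was at 0.74 ± 0.08, and *Hlx*, a homeobox partner of T-bet, at 0.43. The STAT of the IL-12 signal, *Stat4*, was lower at -0.51, and so were the inflammatory cytokine *Tnf* at -0.48 and the chemokine *Ccl5* at -0.84. Without experiment 1, *Tnf* was at -0.46 (adjusted p = 0.0625) and *Ccl5* at -0.58 (adjusted p = 0.0739), and without experiment 2, *Tnf* was at -0.51 (adjusted p = 0.0520).

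The type I interferon-stimulated genes were lower in Th1/2 cells nearly throughout. Of 36 tested, 34 were lower (19.2% of all genes were) and none was higher. At least 2-fold lower were 25 (1.16% of all genes), and 26 were lower in all 8 matched pairs. Over all genes, 15.5% had the same sign in all 8 pairs, both directions together. The median difference was -1.32, and the medians of the single times were -0.87, -1.77, -1.84, and -1.18 in time order. The size differed between the experiments, with a median of -1.89 in experiment 1 and -0.78 in experiment 2. Without experiment 2, 30 of the 36 were called lower, where 9.83% of all genes were, and without experiment 1 there were 4, namely *Samd9l*, *Ifit2*, *Rtp4*, and *Parp14*, where 13.7% of all genes were called lower. No member had a positive mean difference in either experiment.

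*Samd9l*, a restriction factor against viruses, ranged between 7.39 and 10.20 (median 8.75) in Th1/2 cells and between 10.54 and 13.71 (median 13.22) in Th0 cells. The groups did not overlap, and the difference of -4.21 ± 0.28 (adjusted p = 2.26e-09), an 18.5-fold lower intensity, was the largest negative one of all genes. It was -3.97 in experiment 1 and -4.46 in experiment 2, and the naive cells at 0 h held *Samd9l* at 14.13. *Ifit3*, which encodes an antiviral protein, lay between 6.98 and 7.14 in all 8 Th1/2 arrays (median 7.04). In Th0 cells it lay between 11.30 and 13.17 in experiment 1 and between 7.30 and 10.57 in experiment 2. The Th1/2 arrays lay near the median of all values (6.77), so that a difference between the experiments could not show there. The late difference of *Ifit3* was -3.66 ± 0.54 (adjusted p = 3.30e-05), with -5.17 in experiment 1 and -2.14 in experiment 2, and without experiment 1 it missed the threshold (adjusted p = 0.0684).

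The same order of experiments held for other members. *Mx2*, an antiviral dynamin-like GTPase, was at -2.61 and, without experiment 1, at -2.07 (adjusted p = 0.0743). *Oasl2*, a relative of the oligoadenylate synthetases, was at -2.61 and, without experiment 1, at -0.98 (adjusted p = 0.493). *Isg15*, a ubiquitin-like modifier, was at -2.19 over all pairs, with -2.96 in experiment 1 and -1.43 in experiment 2 (adjusted p = 0.176 without experiment 1). *Rsad2*, which encodes the antiviral enzyme viperin, was at -1.96, with -3.42 and -0.51 in the same order (adjusted p = 0.727 without experiment 1). *Irf7*, the factor that amplifies the interferon response, was at -2.10, and *Usp18*, which removes ISG15 and limits the signal, at -2.16. Without experiment 1 they were at -1.67 (adjusted p = 0.0710) and -1.51 (adjusted p = 0.253). *Trex1* (-0.23) and *Ube2l6* (-0.81) were the members not called.

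**Figure D3:**
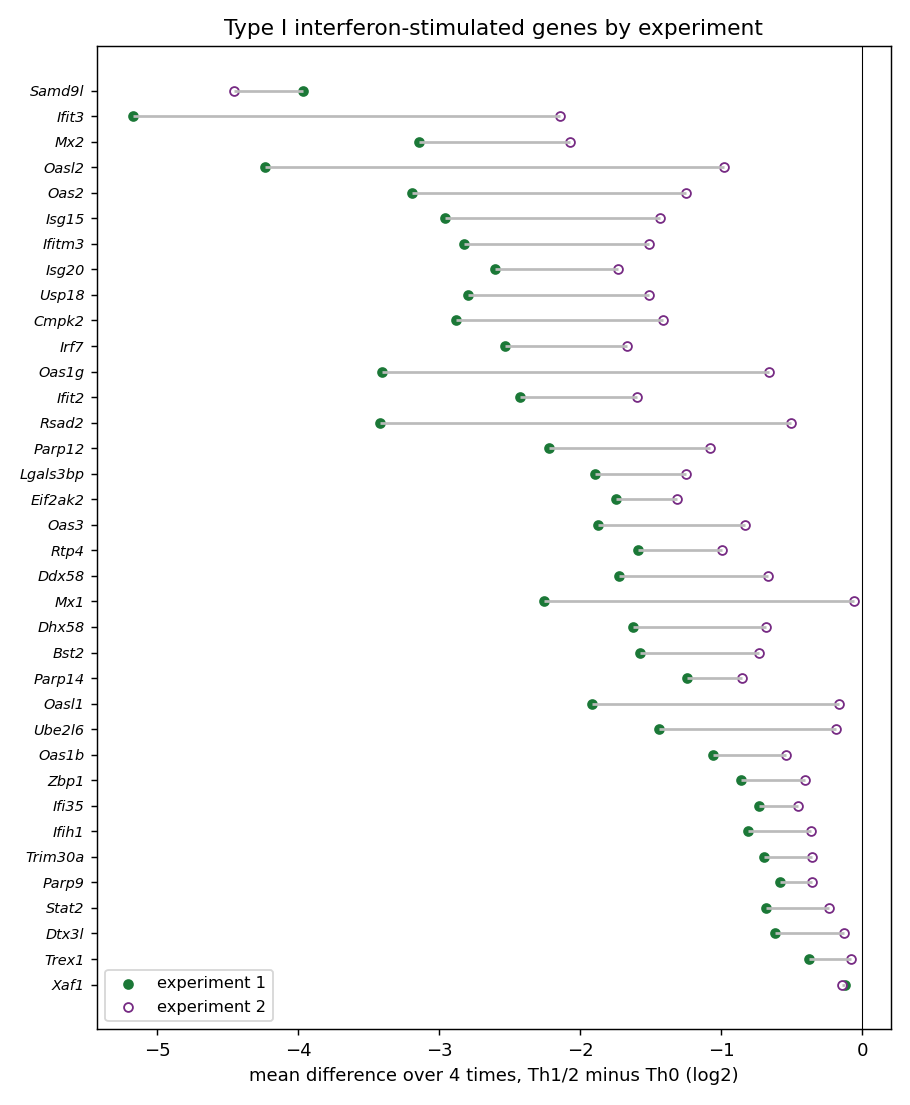
Mean difference over the 4 times (Th1/2 minus Th0, log2, horizontal axis) of the 36 type I interferon-stimulated genes tested, in order of their late difference. Filled green points are experiment 1 and open purple points experiment 2; all lie left of 0, and the median is -1.89 in experiment 1 and -0.78 in experiment 2.

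The interferon-stimulated response element holds repeats of the letters TTTCNNTTTC, or GAAANNGAAA on the other strand. These were found before the start of 378 of 11118 tested genes (3.4%), of 22 of 125 genes called at least 2-fold lower in Th1/2 cells (17.6%), and of 6 of 132 genes called at least 2-fold higher (4.55%). Within the type I interferon list, 8 of 26 genes with a promoter sequence held them (30.8%). This share is not independent of that of the 2-fold lower genes, since 25 members of the list are among them. Of the Th2 list, 1 of 14 genes held them (7.14%). That gene was *Il4*, whose stretch shown earlier also carries a match to these letters, left in lower case. The promoters of *Ifit3*, *Isg15*, and *Rsad2* are shown because these genes are widely used readouts of the interferon response and hold a match, with the matches in capitals and no claim that they are bound. The *Ifit3* stretch lies at chr19:34583343-34583446 on the plus strand, 186 to 83 bases before the start, and holds 2 matches. The *Isg15* stretch at chr4:156200845-156200926, minus strand, 108 to 27 bases before the start, holds 3 overlapping matches. The *Rsad2* stretch at chr12:26456533-26456602, minus strand, 150 to 81 bases before the start, holds 1.
Ifit3: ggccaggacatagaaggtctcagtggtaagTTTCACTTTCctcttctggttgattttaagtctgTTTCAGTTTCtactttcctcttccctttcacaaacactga
Isg15: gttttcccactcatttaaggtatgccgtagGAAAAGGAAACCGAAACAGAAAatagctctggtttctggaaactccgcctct
Rsad2: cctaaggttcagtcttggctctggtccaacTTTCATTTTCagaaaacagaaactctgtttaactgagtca

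Among 24 GTPases and regulators that IFN-γ induces, 10 were lower (19.2% of all genes were) and 3 higher in Th1/2 cells, with a median of -0.09. The share of higher members was close to the 13.5% of all genes. The lower ones were led by the guanylate-binding protein *Gbp7* (-1.47 ± 0.08), which ranged between 8.67 and 10.03 in Th1/2 cells and between 9.80 and 11.96 in Th0 cells. *Gvin1*, a giant GTPase, was at -1.26, *Gbp3* at -0.77, and *Gbp2* at -0.74, and each of these 4 was lower in all 8 pairs. *Socs1*, an inhibitor of JAK kinases, was higher at 0.54, and *Serpina3f*, a protease inhibitor, at 0.56. *Irf8*, an interferon regulatory factor, was called at 0.34 but was at 0.13 (adjusted p = 0.283) without experiment 1. Of the MHC class I presentation genes, 7 of 22 were lower and 1 was higher, against 19.2% and 13.5% of all genes, with a median of -0.13. *Psmb10* (-0.70), a subunit of the immunoproteasome, *Psme2* (-0.68), its activator, and *Tap2* (-0.45), a peptide transporter, were the lower members that remained called with either experiment left out, and the 3 of 22 that were lower without experiment 1 are close to the 13.7% of all genes lower there.

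Outside these lists, several genes with the largest differences had other roles. *Asb2*, a subunit of a ubiquitin ligase that targets filamins, ranged between 11.03 and 12.55 (median 12.25) in Th1/2 cells and between 7.35 and 8.48 (median 7.97) in Th0 cells. The groups stood far apart, with a difference of 4.11 ± 0.13 (adjusted p = 1.78e-13) or 17.2-fold. *Myo6*, a motor that walks toward the minus end of actin filaments, ranged between 11.36 and 15.31 (median 14.72) in Th1/2 cells and between 8.29 and 11.90 (median 11.13) in Th0 cells. It overlapped between the groups because its level was lower at 48 h in both, but it was higher in Th1/2 cells in all 8 pairs, at 3.40 ± 0.11. *Adamtsl4*, a secreted protein of the microfibrils, was at 3.51 ± 0.14, and *Pros1*, the anticoagulant protein S that activates TAM receptors, at 2.65 ± 0.10.

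The gap junction protein gene *Gja1* ranged between 9.50 and 11.89 (median 10.42) in Th1/2 cells and between 6.59 and 9.47 (median 6.95) in Th0 cells, a difference of 2.96 ± 0.20. *Ffar2*, the receptor for short-chain fatty acids, ranged between 7.36 and 10.62 in Th1/2 cells and between 6.33 and 6.78 in Th0 cells, a difference of 2.55 ± 0.16 from a level near the median of all values. Neither gene overlapped between the groups. *Lilr4b*, an immunoglobulin-like receptor (4.06), and *Serpinf1*, a secreted serpin (3.60), depended on the probe, since another probe of each gave 1.43 and 0.04.

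On the lower side, *Igfbp7*, a secreted protein that binds insulin-like growth factors, ranged between 6.48 and 7.80 (median 6.78) in Th1/2 cells and between 9.55 and 11.23 (median 10.77) in Th0 cells. *Nrn1*, the membrane-anchored protein neuritin, ranged between 9.08 and 11.13 (median 10.01) in Th1/2 cells and between 13.00 and 14.45 (median 13.73) in Th0 cells. Neither overlapped, and the differences were -3.77 ± 0.17 (adjusted p = 1.57e-11) for *Igfbp7* and -3.61 ± 0.13 (adjusted p = 1.24e-12) for *Nrn1*. *Apobec1*, an RNA-editing cytidine deaminase, and *Mndal*, a DNA-sensing protein of the interferon-inducible p200 family, were both at -2.63. *Phf11a*, a gene of the PHD finger family, was at -2.50, and *Hsd11b1*, the enzyme that reactivates glucocorticoids, at -2.43. *Hsd11b1* ranged between 7.65 and 8.33 in Th1/2 cells and between 9.29 and 11.05 in Th0 cells, against 11.99 in naive cells.

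Transcription factors that follow T cell receptor signals were also split, with 9 of 23 higher (13.5% of all genes) and 7 lower (19.2% of all genes) in Th1/2 cells. *Batf3*, a relative of BATF, ranged between 9.33 and 11.34 (median 10.32) in Th1/2 cells and between 6.97 and 9.70 (median 7.64) in Th0 cells, a difference of 2.46 ± 0.18. *Atf3* (1.84), a stress-induced repressor, *Egr2* (1.64), which restrains T cell activation, and *Ikzf3* (1.42), the zinc finger protein Aiolos, were higher in all 8 pairs. *Hif1a*, the oxygen-regulated factor, was at 1.22, and *Fosl2*, an AP-1 subunit, at 0.94. *Tox*, a factor of T cell development and exhaustion, ranged between 8.76 and 9.76 in Th1/2 cells and between 10.48 and 11.25 in Th0 cells, a difference of -1.82 ± 0.07. *Zbtb32*, a repressor of T cell cytokines, was lower at -1.34.

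Among genes of naive and memory T cells, 6 of 19 were higher and 6 were lower, against 13.5% and 19.2% of all genes. Without experiment 2 there were 3 and 7, against 8.5% and 9.83% of all genes. *Id2*, an inhibitor of E proteins found in effector cells, was higher at 1.81, and *Id3*, its relative in naive and memory cells, was lower at -1.21. *Il7r*, the survival receptor for IL-7, was at 1.37, and *Satb1*, a chromatin organizer, at 0.69, with 14.78 to 15.17 in Th1/2 cells and 14.19 to 14.47 in Th0 cells. *Dapl1*, a gene of naive cells, was at -2.23, *Klf2*, the quiescence factor that directs homing to lymph nodes, at -1.37, and *Foxp1*, another quiescence factor, at -0.89. *Plac8*, a cysteine-rich protein gene, differed between the experiments. At 73, 96, and 120 h it lay between 12.54 and 13.34 in Th1/2 cells of both experiments, against 12.26 to 13.16 in Th0 cells of experiment 1 and 9.84 to 10.26 in Th0 cells of experiment 2. Its late difference of 1.56 ± 0.38 (adjusted p = 0.00335) was 0.52 in experiment 1 and 2.60 in experiment 2, and the call was lost without experiment 2 (adjusted p = 0.184).

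**Figure D4:**
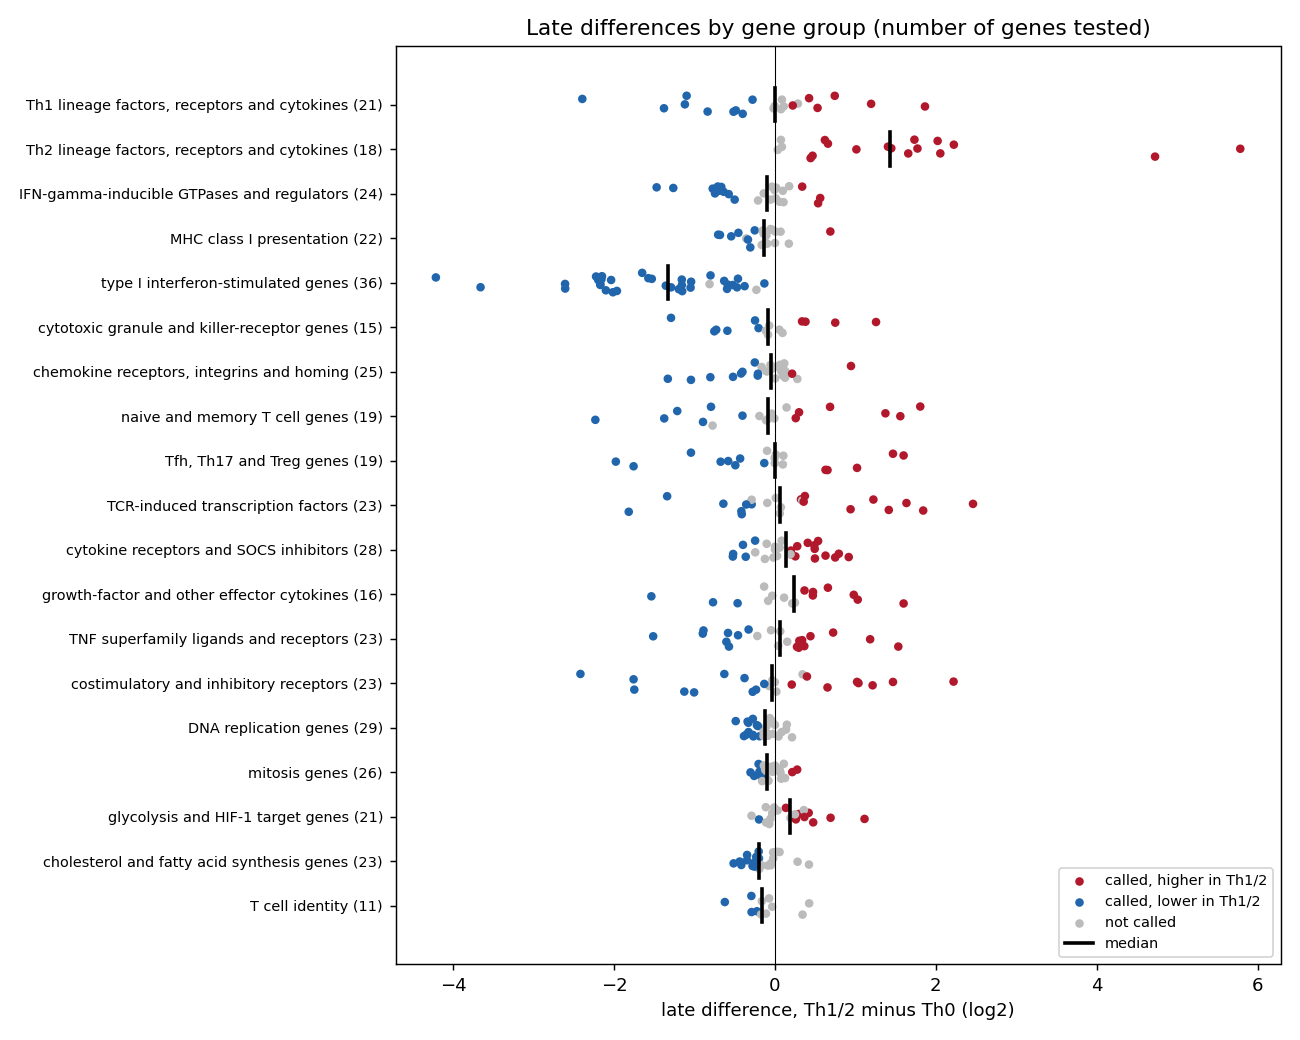
Late difference (Th1/2 minus Th0, log2, horizontal axis) of each tested gene in 19 lists, with the number of genes tested in brackets. Red points were called higher, blue points called lower, grey points not called, and black bars are list medians; the Th2 list (median 1.43) lies right and the type I interferon list (median -1.32) left of all other lists, whose medians lie between -0.20 and 0.23.

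Cytokines that support other cells were higher in Th1/2 cells in 7 of 16 cases and lower in 3, against 13.5% and 19.2% of all genes. Without experiment 2 these were 4 and 3, against 8.5% and 9.83%. *Il21*, which helps B cells, ranged between 7.41 and 8.64 in Th1/2 cells and between 6.34 and 6.63 in Th0 cells, without overlap, a difference of 1.60 ± 0.14. *Lif*, a cytokine of the IL-6 family, was at 1.03, and *Nts*, the neuropeptide neurotensin, at 0.98. *Il2*, the growth factor of T cells, ranged between 6.80 and 11.66 (median 7.10) in Th1/2 cells and between 7.63 and 14.19 (median 8.15) in Th0 cells. The arrays of 48 h were highest in both groups, at 10.65 and 11.66 in Th1/2 cells and at 13.87 and 14.19 in Th0 cells. *Il2* was lower in all 8 pairs, at -1.53 ± 0.14 overall and -2.87 at 48 h, and *Il3*, a growth factor of myeloid cells, was at -0.77 overall and -2.72 at 48 h. *Csf2* was called lower at -0.46, but was at -0.08 (adjusted p = 0.804) without experiment 1.

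Cytokine receptors and SOCS inhibitors were higher in 13 of 28 cases (13.5% of all genes) and lower in 5, none of them 2-fold. The share of lower members was close to the 19.2% of all genes. *Socs3*, an inhibitor of STAT3 signals, lay between 12.23 and 12.71 in Th1/2 cells and between 10.53 and 11.99 in Th0 cells, a difference of 0.92 ± 0.11. *Stat5a*, the transducer of IL-2 signals, was at 0.79, and *Tgfbr1*, a receptor for TGF-β, at 0.75. *Il2ra*, the high-affinity chain of the IL-2 receptor, was higher by 1.35 at 48 h and 0.72 at 73 h, and was at 0.00 (adjusted p = 0.994) at 120 h. *Ifnar2*, a chain of the type I interferon receptor, was lower at -0.52 ± 0.06 (adjusted p = 2.47e-06) and lower in all 8 pairs.

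Of 23 costimulatory and inhibitory receptors, 8 were higher (13.5% of all genes) and 10 were lower (19.2% of all genes). At least 2-fold were 5 of each, against 1.21% and 1.16% of all genes. *Icos* (1.47), which sustains helper cytokines, *Slamf7* (1.21), *Lag3* (1.04), which inhibits T cells through MHC class II, and *Lilrb4a* (2.22), an inhibitory receptor, were higher. *Nt5e*, the ectoenzyme CD73 that makes adenosine, ranged between 6.76 and 7.91 (median 7.49) in Th1/2 cells and between 8.02 and 10.95 (median 10.18) in Th0 cells, a difference of -2.42 ± 0.10. *Btla*, an inhibitory receptor, was at -1.76, and the CD28 ligands *Cd86* and *Cd80* at -1.75 and -1.13. In the TNF superfamily, 10 of 23 genes were higher and 8 lower, against the same shares of all genes. The receptors *Tnfrsf9* (1.53), encoding 4-1BB, and *Tnfrsf8* (1.18), encoding CD30, were higher, and the ligands *Tnfsf11* (-1.51), encoding RANKL, *Cd70* (-0.90), and *Tnfsf8* (-0.89), the ligand of CD30, were lower, as was the death receptor *Fas* (-0.60). *Tnfsf14* was called at 0.72 but was at 0.61 (adjusted p = 0.0631) without experiment 2.

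In the list of Tfh, Th17, and Treg genes, 5 of 19 were higher and 8 lower, against 13.5% and 19.2% of all genes. *Tigit*, an inhibitory receptor, was higher at 1.02, and *Nrp1*, the co-receptor neuropilin found on Treg cells, was lower at -1.98, with 7.39 to 7.69 in Th1/2 cells and 8.21 to 10.79 in Th0 cells. *Ctla4*, another inhibitory receptor (0.65), and *Bcl6*, the master regulator of Tfh cells (-0.67), were called with all pairs and lost with either experiment left out, at adjusted p between 0.0609 and 0.193. *Ctla4* was at 0.64 without experiment 1 and 0.67 without experiment 2, and *Bcl6* at -0.76 and -0.58 in the same order. *Il17a*, the Th17 cytokine, and *Foxp3*, the master regulator of Treg cells, did not pass the test, at 0.01 and -0.10. Chemokine receptors, integrins, and homing genes were lower in 9 of 25 cases (19.2% of all genes) and higher in 2, a share below the 13.5% of all genes. *Cd69*, which retains T cells in tissue, was at -1.33, *Ccr6*, a receptor of Th17 cells, at -1.04, and *Cxcr4* at 0.95. *Cd44*, an adhesion receptor, was at -0.80, with other probes up to 0.03.

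The cytotoxic list held 4 higher and 6 lower genes of 15, against 13.5% and 19.2% of all genes, and 4 and 3 without experiment 1, against 9.51% and 13.7%. *Nkg7*, a granule protein, was at 7.11 to 8.21 in Th1/2 cells and at 8.16 to 10.38 in Th0 cells, a difference of -1.29 ± 0.10, and the killer receptor *Klrd1* was at -0.75. *Srgn*, the granule proteoglycan serglycin, was higher at 1.26, and *Ctsw*, a protease of killer cells, at 0.75. *Fasl* (-0.73) and *Klrk1* (-0.59) were called with all pairs but were at -0.25 (adjusted p = 0.128) and -0.28 (adjusted p = 0.203) without experiment 1.

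Growth and metabolism genes differed by less than 2-fold, except for *Egln3*. Of 29 DNA replication genes, 12 were lower (19.2% of all genes) and none higher, with a median of -0.13, and *Tyms*, which makes thymidylate, was at -0.49 and *Gins3*, part of the replicative helicase, at -0.38. Of 26 mitosis genes, 7 were lower and 2 higher, with a median of -0.10, shares not far from the 19.2% and 13.5% of all genes. Without experiment 2 the mitosis list had 1 higher and no lower gene, and the DNA replication list had 1 higher and 6 lower, where 8.5% of all genes were higher and 9.83% lower. Of 21 glycolysis and HIF-1 target genes, 9 were higher (13.5% of all genes) and 1 lower, with a median of 0.19. That median was -0.01 in experiment 1 and 0.22 in experiment 2. Without the 96 h pair of experiment 2 it was 0.01, and 8 were higher (14.1% of all genes). The 2 that were higher without experiment 2 are close to the 8.5% of all genes higher there. *Egln3*, the prolyl hydroxylase that marks HIF-1 for decay, was at 1.11 ± 0.12, with 0.82 in experiment 1 and 1.41 in experiment 2, and *Pfkm*, a phosphofructokinase, at 0.42. Of 23 cholesterol and fatty acid synthesis genes, 12 were lower (19.2% of all genes) and none higher, with a median of -0.20, and 4 were lower without experiment 2 (9.83% of all genes). *Elovl6*, which lengthens fatty acids, was the member of largest difference at -0.51.

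Markers of other cell types were mostly not called. Over all genes, 13.5% were higher and 19.2% lower in Th1/2 cells, and the counts of these short lists stand beside those shares. The 2 of 11 myeloid and 1 of 7 B cell markers that were higher are not far from the share of all genes. Of 8 dendritic cell markers tested, 4 were higher, namely *Batf3*, the MHC class II invariant chain *Cd74* (1.17), *H2-Ab1* (0.63), and *H2-Eb1* (0.61), and the last 3 were not called without experiment 2. *H2-Eb1* was also not called without the 96 h pair of experiment 2. The summed intensity of the 10 dendritic cell markers on the array ranged between 3055 and 6228 in Th1/2 cells and between 1680 and 3585 in Th0 cells, and the defining markers *Flt3*, *Clec9a*, and *Siglech* were at 0.03, 0.08, and -0.01. Of 11 myeloid markers tested, 2 were higher, and their summed intensity ranged between 1099 and 2288 in Th1/2 cells and between 1114 and 1163 in Th0 cells. *Adgre1*, which encodes the macrophage marker F4/80, was at 6.32 and 6.37 in the Th1/2 arrays of 48 h and at 9.62 and 10.27 in those of 120 h, against 6.32 to 6.83 in all Th0 arrays. The other member called was the Fc receptor gene *Fcgr3* at 0.24, which was not called without experiment 1 (0.20, adjusted p = 0.276) or without experiment 2 (0.27, adjusted p = 0.162), and the remaining 9 were not called, among them *Csf1r* at -0.04, *Lyz2* at -0.05, and *Cd14* at 0.08. The late *Adgre1* difference was also called between Th2 and Th0 cells, at 2.33. Of 7 B cell markers tested, *Cd79b* was higher at 0.97, and at 0.71 (adjusted p = 0.0766) without experiment 2. The summed B cell markers ranged between 1009 and 1246 in Th1/2 cells and between 872 and 1041 in Th0 cells. Of the mast cell and basophil markers 1 of 4 was lower (*Kit*, -0.64) and of the erythroid and platelet markers 1 of 3 (*Hba-a1*, -0.31), both lost with either experiment left out, and no NK cell or CD8 T cell marker was called. The summed CD8 T cell markers ranged between 3311 and 5427 in Th1/2 cells and between 3991 and 7649 in Th0 cells. The part of other cells in these results was not tested.

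The number of called genes changed with time. In the order of the 4 times, 576 (4.17%), 865 (6.26%), 1280 (9.27%), and 858 (6.21%) genes were higher in Th1/2 cells. In the same order, 759 (5.5%), 926 (6.71%), 2097 (15.2%), and 752 (5.45%) were lower. The count at 96 h includes the Th0 array that stood apart, and was 1649 in both directions together without its pair, against 3377 with it. limma's F-test asked whether the difference was the same at the 4 times, and 867 genes (6.28%) passed it, 482 of them with a more positive and 385 with a more negative difference at 120 h than at 48 h. Without the 96 h pair of experiment 2, 777 genes (5.63%) passed. The count moved widely with other settings, to 206 without the block of time and experiment, 352 with only the 16 Th1/2 and Th0 arrays, 1611 with all 74 arrays, 29 without experiment 2, and 2087 without the 96 h pair of experiment 1.

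*F2rl2*, a receptor of the thrombin receptor family, had the largest rise of the difference that was shared by both experiments. Its differences were -0.06, 2.72, 2.94, and 3.83 in time order and passed the F-test (adjusted p = 3.90e-04). The change between 48 and 120 h was 3.90 ± 0.49. The chemokine genes *Ccl4* and *Ccl3* had differences of -3.52 and -3.68 at 48 h that were near 0 at 96 h (-0.05 and -0.01). *Ccl3* lay at 6.88 and 7.28 in Th1/2 cells and at 10.20 and 11.31 in Th0 cells at 48 h, and at 6.30 to 6.67 in Th1/2 cells and 6.41 to 7.11 in Th0 cells afterwards. *Adh4*, an alcohol dehydrogenase gene, followed the same course, with -3.46 at 48 h and between -0.21 and 0.06 afterwards. *Tent5a*, a poly(A) polymerase gene, ran between -0.71 at 48 h and 2.67 at 120 h, and its late difference of 1.39 was 0.63 (adjusted p = 0.126) without experiment 2. The difference of *Cxcr3* was -0.34 at 48 h and 2.08 at 120 h, so that its late mean of 0.74 held opposite signs.

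*Drc1*, a gene of the ciliary dynein regulatory complex, had the largest fall of the difference. It lay between 6.54 and 7.37 in all Th1/2 arrays, and in Th0 cells at 6.60 and 6.62 at 48 h and between 10.75 and 11.97 afterwards. Its difference was -0.02 at 48 h and -4.66 at 120 h (change -4.64 ± 0.13), but another probe of *Drc1* gave a late difference of 0.02. *Nav1*, a microtubule-binding protein gene, and *Nrep*, a gene of cell migration, showed the same pattern, with 0.06 and -0.07 at 48 h and -3.76 and -3.77 at 120 h. *Pdlim4*, an actin-binding adaptor gene, was at 0.12 at 48 h and -3.13 at 120 h. *Tgm2*, the tissue transglutaminase, changed sign, with 2.15 at 48 h (adjusted p = 7.19e-05) and -1.35 at 120 h (adjusted p = 0.00375), so that its late mean was 0.10.

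**Figure D5:**
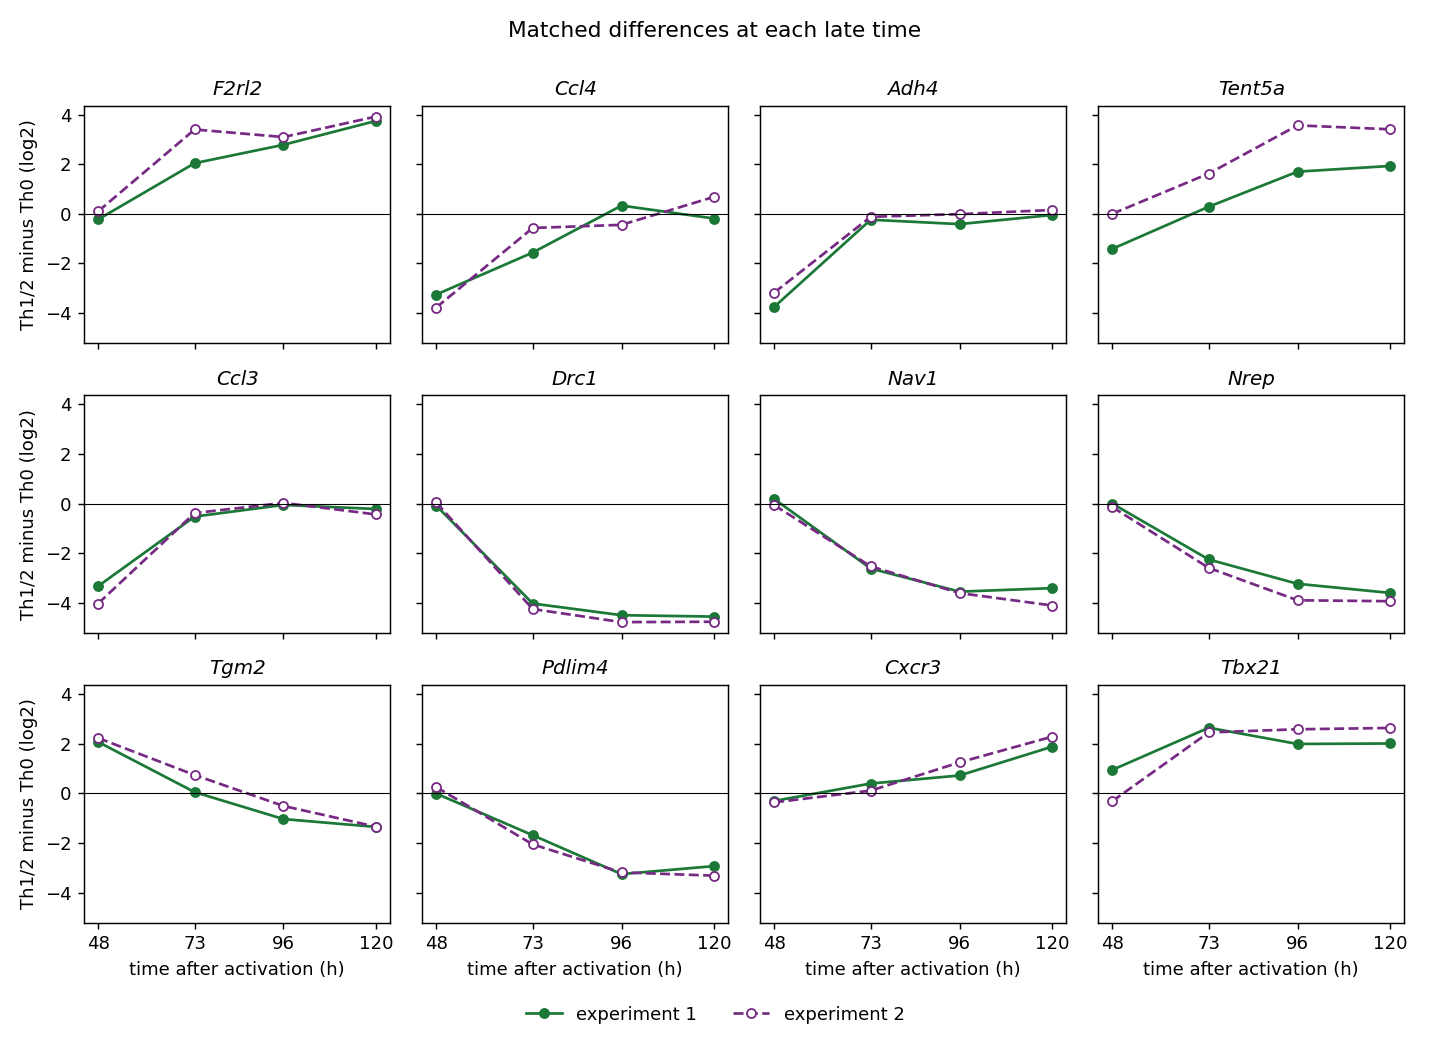
Matched difference (Th1/2 minus Th0, log2, vertical axis) of 12 genes at 48, 73, 96, and 120 h (horizontal axis), 1 matched pair per point. Filled green points are experiment 1 and open purple points experiment 2; *Drc1*, *Nav1*, *Nrep*, and *Pdlim4* are near 0 at 48 h and below -1 from 73 h on in both experiments.

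The Th1 and Th2 arrays of the same times and experiments place these genes. The comparisons share the Th1/2 or the Th0 arrays, so their values are given side by side and are not independent. Of the 147 genes named by rule, 122 differed between Th1/2 and Th1 cells (23.3% of all genes did) and 55 between Th1/2 and Th2 cells (7.6% of all genes did). Nearly all of the 147 were named for their Th1/2 minus Th0 difference in these same Th1/2 arrays. That choice itself raises both counts, so the shares of all genes are given for scale only. *Il4* was at 0.65 in Th1 minus Th0 cells, 4.34 in Th2 minus Th0, 4.08 in Th1/2 minus Th1, and 0.39 in Th1/2 minus Th2 cells, the last with adjusted p = 0.298. For *Gata3* these values were -0.64, 2.51, 2.86, and -0.29 (adjusted p = 0.113), and for *Tbx21* 2.21, -1.08, -0.34 (adjusted p = 0.0991), and 2.94. The Th1/2 level of *Gata3* was thus within 0.3 of the Th2 level, and that of *Tbx21* within 0.4 of the Th1 level. *Samd9l* was at -1.25 in Th1 minus Th0 and -4.74 in Th2 minus Th0 cells, and the Th1/2 minus Th2 difference was 0.52 (adjusted p = 0.345).

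A few genes stood apart from both Th1 and Th2 cells. *Gja1* was higher in Th1/2 cells than in either, by 1.72 against Th1 and 1.48 against Th2 cells, *Ffar2* likewise (0.67 and 2.43), and *Il21* too (0.68 and 1.35), all past the threshold. *Ikzf3* was at 1.15 and 0.87, and *Lilrb4a* at 1.35 and 0.97. *Nrn1* was lower in Th1/2 cells than in either (-2.50 against Th1 and -1.60 against Th2 cells), and so were *Nt5e* (-1.30 and -0.62), *Dapl1* (-0.51 and -0.90), and *Nrp1* (-1.24 and -1.38). *Plac8* lay between, at -1.36 against Th1 cells and 4.67 against Th2 cells. The median of the type I interferon list was -0.39 in Th1 minus Th0 cells and -1.72 in Th2 minus Th0 cells, against -1.32 in Th1/2 minus Th0 cells. The median of the Th2 list was 0.09, 1.40, and 1.43 in the same order.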

How the data were processed

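The series holds 74 bead arrays (Illumina, Mouse Sentrix-6). The deposited values are linear intensities; the authors' methods name a background correction, a quantile normalization, and a log2 scale, and the sources used here do not name the software. Since the deposited intensity ranged between 55.8 and 69892, log2 was taken and nothing else was normalized. Precision is limited by the number of arrays.

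Of 45135 probes, 34773 carry 1 symbol, 18 several, and 10344 none; symbols are those of the platform annotation, 29 of them updated through RefSeq. Probes with a mean above the median of all values (6.77, log2) in at least 1 condition were kept, 23115 in all, and a gene took its brightest one (13810 genes, 5867 with several).

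The 32 late arrays of Th0, Th1, Th2, and Th1/2 cells were fitted with limma 3.58.1 in R 4.3.3, with a mean per cell type and time and a block for each time of each experiment, leaving 12 residual degrees of freedom. The labels end in a number, 1 or 2, and the study reports 2 experiments. The labels do not state that equal numbers share an experiment, so the pairing by number was assumed. The Th1/2 and Th0 deviations between experiments correlated at each time (r = 0.445, 0.544, 0.213, and 0.722). Calls used the Benjamini-Hochberg adjusted p over all genes, and the fit was tested on simulated data.

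Genes named in the text are the 10 of largest late difference in each direction with the same sign in 8 pairs, *Tbx21*, *Gata3*, *Ifng*, and *Il4*, up to 4 called members of each list in each direction, and the 5 of largest change over time in each direction; further list members are named as examples, chosen with their values seen. The members and lists were chosen with earlier results of these data known. Of 561 list entries, 459 were tested, 58 were below the filter, and 44 had no matched probe and were not analysed here. Promoters are RefSeq sequences of build GRCm38.p6, with 32851 windows, matched by symbol to 11118 of the genes. Alternatives were the block, the arrays in the fit, normalization, probe choice, filter, variance model, fold threshold, and arrays left out.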

Additional observations from a re-analysis of the deposited data

Results flagged for a closer look

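For 52 of the named genes the Th1/2 minus Th0 difference changed between 48 and 120 h by limma's F-test; the values below are the change, 120 h minus 48 h, on the log2 scale, over 2 matched pairs at each time. Among lineage and cytokine genes the change was 2.01 for *Tbx21*, 2.42 for *Cxcr3*, 1.33 for *Eomes*, 3.35 for *Ccl3*, 3.76 for *Ccl4*, 1.87 for *Il2*, 2.76 for *Il3*, 2.25 for *Nts*, -1.34 for *Il2ra*, 1.25 for *Il15ra*, 1.09 for *Il7r*, -1.02 for *Socs3*, and 0.74 for *Tgfbr1*. Among receptors and ligands it was 1.80 for *Icos*, 2.38 for *Lag3*, 2.37 for *Lilrb4a*, 1.54 for *Lilr4b*, -1.84 for *Nt5e*, 1.39 for *Cd80*, -1.23 for *Cd86*, 2.27 for *Cd70*, 1.38 for *Tnfrsf9*, 2.11 for *Tnfsf11*, -0.87 for *Tnfsf8*, 2.34 for *Ffar2*, 3.90 for *F2rl2*, 3.16 for *Adgre1*, -0.49 for *Cd2*, and 0.76 for *Cd3g*.

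Among transcription factors and interferon-inducible genes it was -1.27 for *Tox*, -1.66 for *Klf2*, 0.84 for *Nr4a3*, 0.42 for *Gbp7*, and 1.32 for *Gvin1*. Among enzymes, protease inhibitors, and structural genes it was 1.66 for *Asb2*, 2.49 for *Adamtsl4*, 3.12 for *Serpinf1*, 1.46 for *Serpinb6b*, 0.97 for *Ctsw*, -1.90 for *Apobec1*, -0.93 for *Hsd11b1*, 3.52 for *Adh4*, 3.37 for *Tent5a*, -3.50 for *Tgm2*, -1.30 for *Elovl6*, -0.24 for *Ldha*, -0.91 for *Pfkm*, -1.76 for *Dapl1*, -4.64 for *Drc1*, -3.82 for *Nav1*, -3.70 for *Nrep*, and -3.25 for *Pdlim4*.

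The matched difference of 2 genes at 96 h in experiment 2 lay far from their other 7. It was 2.64 for *Calr*, a chaperone of the endoplasmic reticulum (others -0.17 to 0.83, gap over range 0.643), and 2.16 for *Hk1*, a hexokinase (others -0.24 to 0.82, gap over range 0.560). The pair holds the Th0 array that stood apart, and chance alone marks about 1 in 20 groups.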

How the results depend on the processing

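Of the 145 named genes called, 101 kept their call and direction under all 20 alternatives. Without the replicate block, 1723 genes were lower (2649 with it), 206 passed the time test (867), and 525, 850, 1597, and 754 were called at 48, 73, 96, and 120 h (1335, 1791, 3377, and 1610); *Prf1*, *Il10rb*, and *Irf8* were among the named genes not called without the block, and the pairing is described with the processing. Without the 96 h pair of experiment 2, 1649 genes were called at 96 h. The time test passed 1611 genes with all 74 arrays and 352 with only the 16 Th1/2 and Th0 arrays. At 1.5-fold, 431 genes were higher and 423 lower, against 167 and 160 at 2-fold.

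With 1 pair or 1 experiment left out, the counts ran between 1174 and 1876 (higher; 1949 without the 96 h pair of experiment 2), 1358 and 2831 (lower), 157 and 196 (2-fold higher), 135 and 171 (2-fold lower), and 29 and 2087 (time test). They ran between 301 and 1558 at 48 h, 462 and 2104 at 73 h, 853 and 3376 at 96 h, 469 and 1897 at 120 h, 180 and 258 for list members, 91 and 120 for named genes against Th1, and 36 and 58 against Th2. The lowest of each came without experiment 2, except for 2-fold lower genes, lowest without experiment 1; with 1 experiment the Th1/2 and Th0 spread is taken from the Th1 and Th2 arrays. The late differences of *Serpinb6b* (0.34 over all pairs, between -0.108 and 0.783) and *Tgm2* (0.10, between -0.0693 and 0.276) turned below 0 without experiment 2. The cause of these shifts was not tested. Arrays give no depth, and a gene near the median of all values in 1 group has only a bound on its difference.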
